A study of Homo sapiens with 2 samples.

Results

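Glycolysis and the transcriptional response to low oxygen were followed through 38 genes, of the 30796 genes in the deposited matrix, in 2 human triple-negative breast cancer cell lines. The genes were taken as a named list: transporters of glucose and lactate, the enzymes from hexokinase to lactate dehydrogenase, the pyruvate dehydrogenase kinases, and further targets of the hypoxia-inducible factors. No measured value entered the rule for the symbols, but the list was drawn up with earlier results of these data known. MDAMB468 and CAL51 are established breast cancer lines, labelled as triple negative, which means that the tumour class lacks oestrogen receptor, progesterone receptor and ERBB2 amplification. For each line there was 1 library made by Drop-seq, a method in which cells and barcoded beads are co-encapsulated in droplets and transcripts are counted from their 3′ ends by unique molecular identifiers (UMIs). No treatment, oxygen level, medium or confluence was stated for either line. With 1 library per line there was no test across samples, so every interval below covers counting error alone, and a difference between the libraries cannot be told apart from a difference between cultures, captures or preparations.

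In glycolysis, glucose is phosphorylated, split into triose phosphates and oxidised to pyruvate, and lactate dehydrogenase returns the electrons to pyruvate and makes lactate, which monocarboxylate transporters carry out of the cell. When oxygen is present, prolyl hydroxylases of the EGLN family mark the HIF alpha subunits for VHL, which directs their destruction. When oxygen is scarce, HIF1A or EPAS1 pairs with ARNT and binds the letters ACGTG or GCGTG near its targets, among which are most genes of glycolysis, the carbonic anhydrase CA9, the mitophagy receptors BNIP3 and BNIP3L, and EGLN3 itself. Aerobic lactate production is a known feature of many cancer lines, and triple-negative tumours often carry a strong hypoxia signature.

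The MDAMB468 library held 306 barcodes and 5501900 UMIs (median 10016.5 per barcode, range 2501 to 134213). The CAL51 library held 1377 barcodes. Of these, 31 had a barcode sequence also present in MDAMB468 and were left out, so 1346 barcodes with 16223444 UMIs were used (median 8635, range 2506 to 113702). In MDAMB468, 64 barcodes differed by 1 base from another of that library that had 5 or more times their UMIs, against 7 in CAL51. They were kept, and whether they share a cell with that barcode was not tested. Mitochondrial genes took 5.88% of UMIs in MDAMB468 and 4.14% in CAL51. EPCAM, KRT8 and KRT18, markers of epithelial cells, were present in both lines, at 867, 764 and 555 CPM in MDAMB468 and 283, 919 and 1555 CPM in CAL51 (CPM, the UMIs of a gene per 1000000 UMIs of the line). CDH1, the epithelial cadherin, gave 182 UMIs in MDAMB468 and 7 in CAL51. Of the 5 epithelial markers looked up, not all named here, 3 were at least 2-fold higher in MDAMB468 and 1 in CAL51. The lines were thus not alike in these markers. ESR1 gave 3 and 0 UMIs, PGR 1 and 1, and ERBB2 39 and 262. Leukocyte markers (PTPRC, CD14, CD68) summed to 1.09 and 0.678 CPM and endothelial markers (PECAM1, VWF, CDH5) to 1.09 and 0.370 CPM, with PTPRC, VWF and CDH5 at 0 in MDAMB468.

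Upstream sequence was taken for the members that a RefSeq promoter table of GRCh38.p14 held with a single window, which were 21 of 38. The windows of all genes were counted without that limit. The 250 bases before the annotated start were searched on both strands for ACGTG and GCGTG. A palindromic CACGTG counts on both strands, and the 2 motifs share no 5 letters. ACGTG occurred in 10 of the 21 windows (47.6%) and in 18.5% of the 35116 windows of all genes. GCGTG occurred in 9 (42.9%) against 32.2%. Either motif occurred in 15 (71.4%) against 43.2%. BNIP3 had the most copies, 6, followed by ALDOC with 5 and PGK1 and ANKRD37 with 3 each, whereas SLC2A1, PGAM1, PKM, LDHB, P4HA2 and EGLN3 had none in this window. A match is a run of letters and not a measured binding site. The members below are shown because their levels differed by the widest ratios between the lines (CA9, CA12, ADM, EGLN3), because of the number of copies (BNIP3), or because the gene was among the highest in the co-variation described further on (GAPDH). Motif letters are in capitals. Where annotated exons of the same strand cover the window, only the 30 bases around the first motif are given. CA9 (chr9:35673898-35673927, plus strand), CA12 (chr15:63382063-63382092, minus strand), ADM (chr11:10304960-10304989, plus strand) and GAPDH (chr12:6535171-6535200, plus strand) are such sites. BNIP3 (chr10:131982014-131982173, minus strand) and EGLN3 (chr14:33951082-33951324, minus strand) are given up to the first annotated exon base, all 5′ to 3′.
CA9: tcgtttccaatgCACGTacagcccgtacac
CA12: gcggatctcaccCACGCctgccagcagctc
ADM: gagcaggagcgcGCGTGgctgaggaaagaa
GAPDH: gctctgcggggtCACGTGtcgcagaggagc
BNIP3: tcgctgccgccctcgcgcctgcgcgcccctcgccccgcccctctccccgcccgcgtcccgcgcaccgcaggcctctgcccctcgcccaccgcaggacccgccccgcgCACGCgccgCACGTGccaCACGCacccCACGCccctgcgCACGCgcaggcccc
EGLN3: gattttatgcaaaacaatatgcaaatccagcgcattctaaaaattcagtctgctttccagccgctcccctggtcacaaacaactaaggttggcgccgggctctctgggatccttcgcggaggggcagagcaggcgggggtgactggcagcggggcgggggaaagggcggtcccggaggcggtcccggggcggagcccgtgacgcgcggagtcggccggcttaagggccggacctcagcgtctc
The last base of the CA9 motif, which is read on the opposite strand, lies 14 bases before the annotated start. EGLN3 has neither motif in its 250 bases.

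All 38 genes are in the matrix, and together they took 0.553% of UMIs in MDAMB468 and 1.01% in CAL51. At least 20 UMIs over both lines were found for 36. The exceptions were SLC2A3, with 0 and 14 UMIs in MDAMB468 and CAL51, and ALDOC, with 6 and 13. Differences are given as the log2 of CPM + 1 in MDAMB468 minus that in CAL51. Adding 1 shrinks the value of low genes towards 0. Of the 36, 6 were at least 2-fold higher in MDAMB468 on this scale (SLC16A3, HK1, GPI, PFKP, CA9 and EGLN3), where 15.8% of all 15347 genes with as many counts were. Another 14 were at least 2-fold higher in CAL51 (SLC16A1, PFKM, TPI1, GAPDH, ENO2, LDHA, LDHB, BNIP3L, CA12, ADM, P4HA1, P4HA2, ANKRD37 and KDM3A), where 18.6% of all genes were, and 16 lay within 2-fold. The share of members higher in MDAMB468 was close to the background and the share higher in CAL51 was above it. The median log2 difference was -0.60 over the 36 members and -0.13 over all genes. Other scalings moved the median over all genes to between -0.04 and -0.02 and left the sign of each of the 36 as it was.

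**Figure D1:**
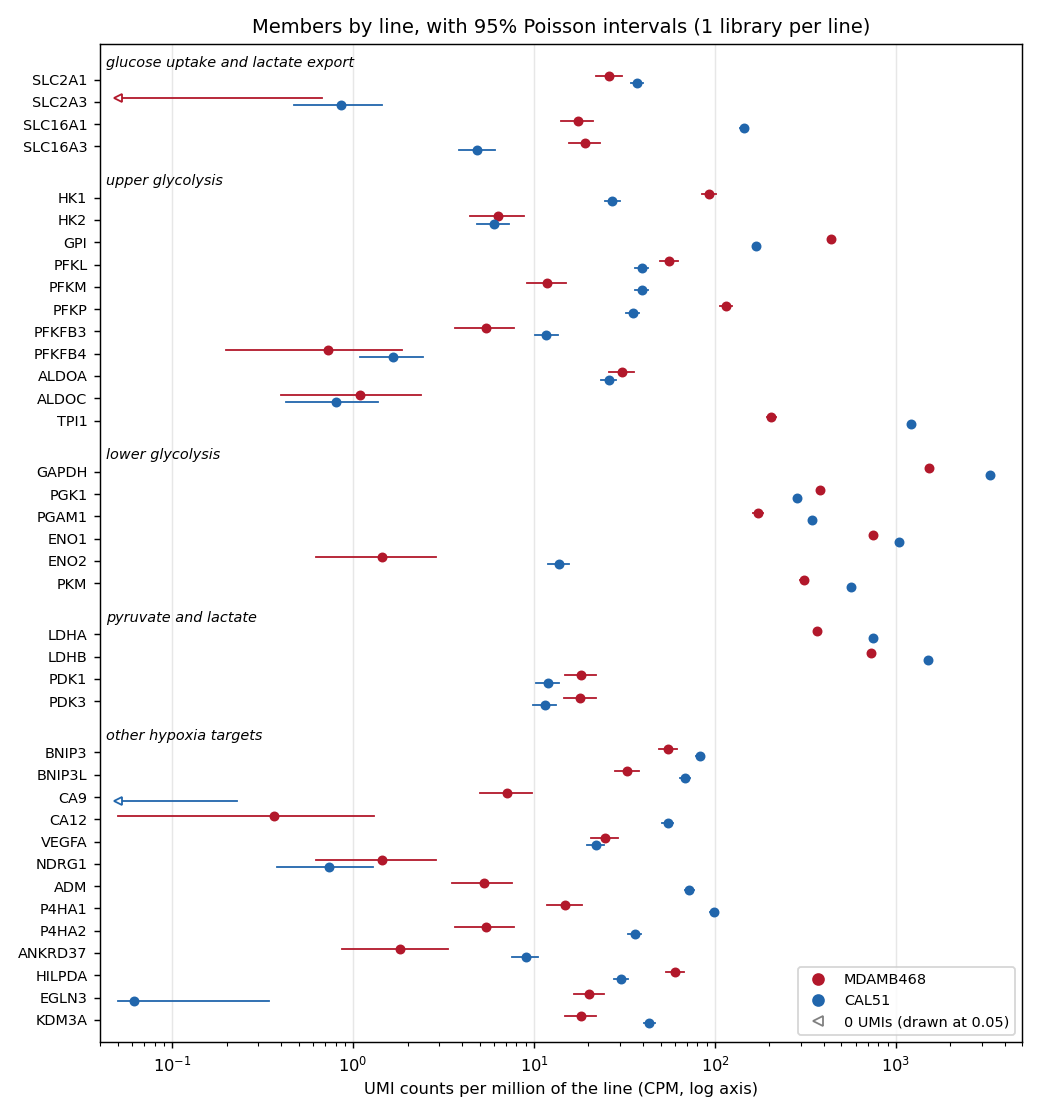
Level of each of the 38 genes in MDAMB468 (red) and CAL51 (blue), in CPM on a log axis, with exact 95% Poisson intervals; open triangles mark 0 UMIs. GAPDH is the highest in both lines at 1513 and 3294 CPM, and CA9, CA12 and EGLN3 stand furthest apart between the lines.

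SLC2A1 gave nearly all transcripts of the listed glucose transporters in both lines, whereas the transcripts of the lactate carriers were about evenly divided in MDAMB468 and mostly SLC16A1 in CAL51. SLC2A1, the widespread glucose transporter, stood at 26.0 CPM (95% Poisson interval 21.9 to 30.6) in MDAMB468 and 37.2 CPM (34.3 to 40.3) in CAL51, a log2 difference of -0.50. SLC2A3, the high-affinity neuronal-type transporter, was not detected in MDAMB468 and stood at 0.863 CPM in CAL51. By a floor of 3 counts this was at least 1.58-fold higher, and the exact 95% lower limit of the ratio was 1.12. SLC16A1, a proton-linked lactate carrier, gave 96 UMIs (17.4 CPM) in MDAMB468 and 2335 UMIs (143.9 CPM) in CAL51, a ratio of 8.25 (95% interval 6.72 to 10.2). SLC16A3, the carrier typical of lactate-exporting cells and a known hypoxia target, ran the other way with 105 UMIs (19.1 CPM) in MDAMB468 and 79 UMIs (4.87 CPM) in CAL51, a ratio of 3.92 (2.90 to 5.32). Of the UMIs of both carriers, SLC16A3 made up 52.2% (exact binomial interval 45.1 to 59.3) in MDAMB468 and 3.27% (2.60 to 4.06) in CAL51. Exons of SLC16A3 share 5.36% of their bases with CSNK1D on the opposite strand, and no source states if strand was used in counting.

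Among 10 genes of upper glycolysis with enough counts, HK1, GPI and PFKP were at least 2-fold higher in MDAMB468, PFKM and TPI1 in CAL51, and 5 lay within 2-fold (median log2 difference 0.15). Over all genes, 15.8% were at least 2-fold higher in MDAMB468 and 18.6% in CAL51. HK1, a hexokinase, which traps glucose in the cell by phosphorylation, stood at 93.1 CPM (85.2 to 101) in MDAMB468 and 27.1 CPM (24.6 to 29.8) in CAL51, a ratio of 3.43 (3.01 to 3.91). HK2, the hexokinase often raised in tumours, was low in both lines, at 6.36 and 5.98 CPM with overlapping intervals. GPI, which turns glucose 6-phosphate into fructose 6-phosphate, gave 2420 UMIs (440 CPM) and 2718 UMIs (168 CPM), a ratio of 2.63 (2.48 to 2.77).

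Phosphofructokinase-1, the main control point of glycolysis, is built from 3 subunit types, and the lines differed in all of them. PFKP, the platelet-type subunit, stood at 115 CPM in MDAMB468 and 35.2 CPM in CAL51, a ratio of 3.26 (2.91 to 3.66). PFKM, the muscle-type subunit, stood at 11.8 and 39.3 CPM, so it was 3.33-fold (2.58 to 4.37) higher in CAL51. PFKL, the liver-type subunit, stood at 55.8 and 39.3 CPM, a log2 difference of 0.49. The summed counts of the 3 genes were 62.9% PFKP (59.9 to 65.9), 30.6% PFKL and 6.47% PFKM in MDAMB468. In CAL51 they were nearly even, with 34.5% each for PFKL and PFKM, which both gave 638 UMIs, and 30.9% PFKP (28.8 to 33.1). The exons of PFKM share 8.58% of their bases with SENP1 on the opposite strand, which gave 100 and 649 UMIs. PFKFB3 and PFKFB4, which make the activator fructose 2,6-bisphosphate, were scarce, with 30 and 190 UMIs for PFKFB3 (log2 difference -0.98) and 4 and 27 for PFKFB4 (-0.63).

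ALDOA, the main aldolase, stood at 30.5 and 25.9 CPM, and ALDOC, the brain-type aldolase, made up 3.45% and 3.002% of aldolase UMIs. ALDOA shares 42.3% of its exon bases on the same strand with a readthrough gene, AC093512.2, which itself gave 0 and 1 UMIs. How reads over such shared bases were treated is not given, so the ALDOA level set against that of its neighbours in the pathway is uncertain. TPI1, which interconverts the triose phosphates, differed most among the abundant enzymes. It gave 1129 UMIs (205 CPM, 193 to 218) in MDAMB468 and 19679 UMIs (1213 CPM, 1196 to 1230) in CAL51, a ratio of 5.91 (5.57 to 6.28). The 11 genes of upper glycolysis summed to 965 CPM in MDAMB468 and 1568 CPM in CAL51. Without TPI1 the order turned, with 760 and 355 CPM.

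The 6 enzymes of the payoff phase had the highest summed level of the groups of members, 3124 CPM in MDAMB468 and 5540 CPM in CAL51. Of these, 2 were at least 2-fold higher in CAL51 (GAPDH and ENO2), where 18.6% of all genes were. The other 4 lay within 2-fold, and the median log2 difference of the 6 was -0.92. GAPDH, which oxidises glyceraldehyde 3-phosphate, was the highest member in both lines, with 8325 UMIs (1513 CPM, 1481 to 1546) in MDAMB468 and 53441 UMIs (3294 CPM, 3266 to 3322) in CAL51, a ratio of 2.18 (2.13 to 2.23). ENO1, the common enolase, stood at 745 and 1043 CPM (log2 difference -0.48), PGAM1, the phosphoglycerate mutase, at 174 and 343 CPM (-0.98), and PKM, which makes pyruvate, at 309 and 562 CPM (-0.86). PGK1, the first ATP-producing enzyme and a classical HIF target, was the exception, at 382 CPM (365 to 398) in MDAMB468 and 284 CPM (276 to 292) in CAL51 (0.42). ENO2, the neuron-type enolase, was low, with 8 UMIs (1.45 CPM) and 222 UMIs (13.7 CPM), a ratio of 9.41 (4.69 to 22.1). Of enolase UMIs, 0.195% (0.0841 to 0.383) were ENO2 in MDAMB468 and 1.29% (1.13 to 1.48) in CAL51.

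LDHA and LDHB, whose subunits form the tetramers that interconvert pyruvate and lactate, were both near 2-fold higher in CAL51. LDHA stood at 367 CPM (351 to 383) and 749 CPM (736 to 762), a ratio of 2.04 (1.95 to 2.14). LDHB, the heart-type subunit, stood at 729 CPM (706 to 752) and 1504 CPM (1486 to 1523), a ratio of 2.06 (1.997 to 2.14). The share of LDHA among LDH transcripts was therefore nearly the same in the lines, 33.5% (32.3 to 34.7) in MDAMB468 and 33.2% (32.8 to 33.7) in CAL51, and LDHB led in both. Under scalings other than the total of all genes, LDHA had log2 differences between -0.93 and -0.91 and LDHB between -0.94 and -0.93, just under 2-fold. LDHB shares 33.4% of its exon bases on the same strand with AC010197.2, which gave 0 and 3 UMIs. PDK1 and PDK3, kinases that inhibit pyruvate dehydrogenase, went the other way, at 18.2 and 17.99 CPM in MDAMB468 and 11.9 and 11.5 CPM in CAL51, with log2 differences of 0.57 and 0.61.

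The 13 hypoxia targets outside glycolysis were more often higher in CAL51. All had at least 20 UMIs. CA9 and EGLN3, 2 of 13, were at least 2-fold higher in MDAMB468, close to the 15.8% of all genes. Another 7 were at least 2-fold higher in CAL51, above the 18.6% of all genes, and 4 lay within 2-fold. The median log2 difference of the 13 was -1.04. Their summed level was 248 CPM in MDAMB468 and 517 CPM in CAL51.

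CA9 and CA12, membrane carbonic anhydrases that help to handle the acid made by glycolysis, were each close to confined to 1 of these libraries. CA9, among the most used tissue markers of hypoxia, gave 39 UMIs (7.09 CPM, 5.04 to 9.69) in MDAMB468 and none in CAL51. There 3 counts would be 0.185 CPM, so by that floor CA9 was at least 38.3-fold higher in MDAMB468. The exact 95% lower limit of the ratio, which includes the counting error of the 39 UMIs, was 29.7. CA12 gave 2 UMIs (0.364 CPM) in MDAMB468 and 888 UMIs (54.7 CPM, 51.2 to 58.5) in CAL51, a ratio of 151 (41.6 to 1245). CA9 made up 95.1% (83.5 to 99.4) of the pair in MDAMB468, and 0 of 888 UMIs in CAL51, which allows a share of up to 0.338% by the floor of 3 counts (exact upper limit 0.415%). Exons of CA9 share 38.5% of their bases with ARHGEF39 on the opposite strand, which was detected in both lines with 150 and 573 UMIs.

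EGLN3, a HIF prolyl hydroxylase that HIF itself induces, gave 111 UMIs (20.2 CPM, 16.6 to 24.3) in MDAMB468 and 1 UMI (0.0616 CPM) in CAL51, a ratio of 327 (57.5 to 13043). A further 3 EGLN3 UMIs were in the 31 left-out barcodes whose sequences occur in both libraries. With those barcodes kept, CAL51 had 4 UMIs and the ratio was 82.5 (31.3 to 308), which was the one ratio among the members detected in both lines to move by over 1.5 times. ADM, a vasodilator peptide, gave 29 UMIs (5.27 CPM) and 1167 UMIs (71.9 CPM), a ratio of 13.6 (9.45 to 20.5) towards CAL51. P4HA1 and P4HA2, catalytic subunits of collagen prolyl 4-hydroxylase, stood at 14.9 and 5.45 CPM in MDAMB468 and at 98.1 and 36.1 CPM in CAL51, with ratios of 6.58 (5.27 to 8.32) and 6.62 (4.59 to 9.91). KDM3A, a histone H3 lysine demethylase, stood at 18.2 and 43.5 CPM (log2 difference -1.21). ANKRD37, a small ankyrin-repeat protein, gave 10 and 146 UMIs, a ratio of 4.95 (2.62 to 10.5), and shares 35.2% of its exon bases with UFSP2 on the opposite strand, which gave 210 and 930 UMIs.

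BNIP3, a mitophagy receptor, stood at 55.3 CPM (49.2 to 61.8) in MDAMB468 and 82.8 CPM (78.4 to 87.3) in CAL51 (log2 difference -0.57), and its relative BNIP3L at 32.7 and 68.3 CPM (-1.04). VEGFA, the angiogenic factor, stood at 24.7 CPM (20.7 to 29.2) and 21.9 CPM (19.7 to 24.3), which overlap. HILPDA, a lipid-droplet protein, stood at 60.2 and 30.1 CPM, a log2 difference of 0.97, just under 2-fold. NDRG1, among the most strongly induced hypoxia genes in many epithelial cells, was close to undetected, with 8 and 12 UMIs. Within MDAMB468 the order from the top was thus HILPDA, BNIP3, BNIP3L and VEGFA, and within CAL51 it was P4HA1, BNIP3, ADM and BNIP3L; a 3′ UMI counts a molecule, so these levels have no length term. In MDAMB468 the intervals of HILPDA and BNIP3 overlap, as do those of BNIP3L and VEGFA, and in CAL51 those of ADM and BNIP3L overlap.

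Considered as families, 12 sets of isozymes or related carriers could be compared, and the leading gene differed in 3 of them: phosphofructokinase-1, the lactate carriers and the carbonic anhydrases. For the carriers in MDAMB468 the lead of SLC16A3 was within counting error. For phosphofructokinase-1 in CAL51 no gene led beyond counting error, since PFKL and PFKM tied and their interval (32.4 to 36.8%) overlaps that of PFKP. In 5 families the share of the first gene differed by under 1 percentage point between the lines. These were LDHA of LDH (above), P4HA1 of the P4HA pair at 73.2% (64.0 to 81.1) and 73.1% (71.2 to 74.9), PDK1 of the PDK pair at 50.3% (43.1 to 57.4) and 50.9% (45.8 to 56.1), PFKFB3 of the PFKFB pair at 88.2% (72.5 to 96.7) and 87.6% (82.4 to 91.6), and ALDOA of the aldolases at 96.6% (92.6 to 98.7) and 97.0% (94.9 to 98.4). The intervals of LDH are narrow, and those of PFKFB and P4HA in MDAMB468 are wide, since they rest on 34 and 112 UMIs. HK1 led the hexokinases with 93.6% (91.2 to 95.5) and 81.9% (78.4 to 85.1), and BNIP3 led its pair with 62.8% (58.3 to 67.1) and 54.8% (52.8 to 56.8).

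**Figure D2:**
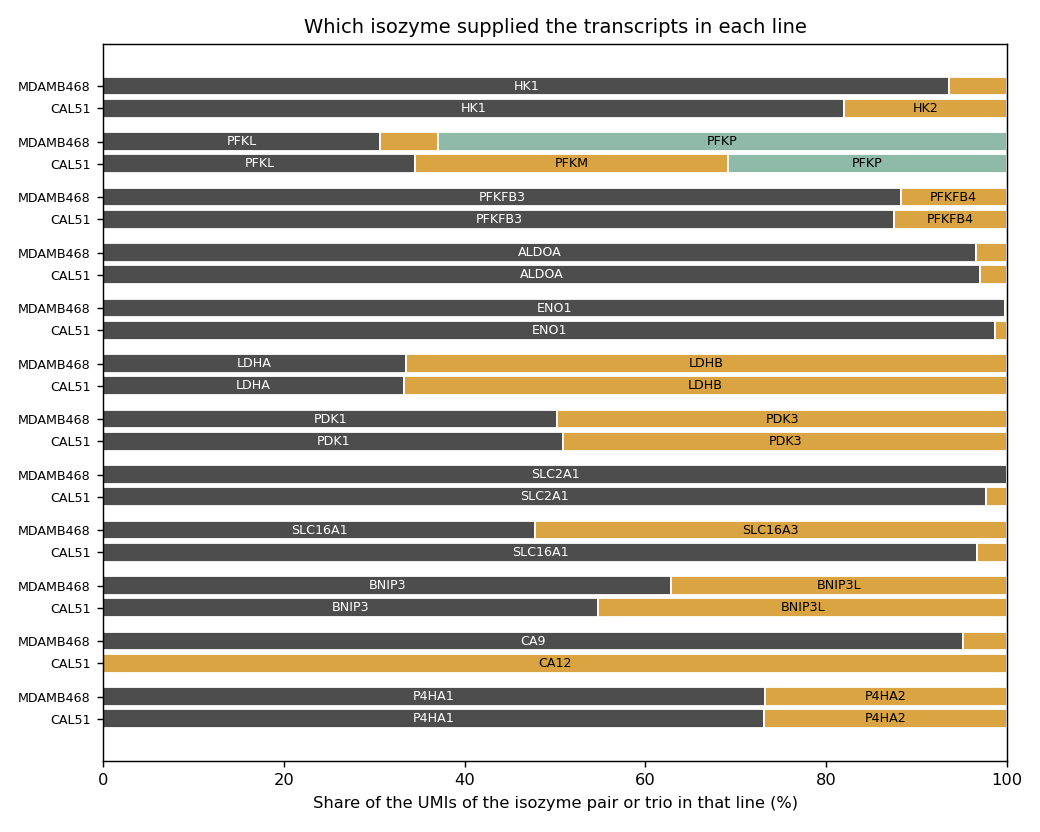
Share of each gene (percent of the UMIs of its family) in MDAMB468 (upper bar of each pair) and CAL51 (lower bar), for 12 families. The bars differ in their leading gene for PFKL, PFKM and PFKP, for SLC16A1 and SLC16A3 and for CA9 and CA12, and LDHA takes 33.5% and 33.2%.

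The HIF pathway itself differed in its alpha subunits. Of 15 listed regulators in the matrix, 1 was at least 2-fold higher in MDAMB468, 4 in CAL51 and 10 lay within 2-fold. The shares over all genes were 15.8% and 18.6%. EPAS1, which encodes HIF-2 alpha, gave 151 UMIs (27.4 CPM) in MDAMB468 and 4 UMIs (0.247 CPM) in CAL51 (log2 difference 4.51, ratio 111, interval 42.6 to 414). HIF1A stood at 67.2 and 157 CPM (-1.21). ARNT2, a neural partner of the alpha subunits, gave 2 and 95 UMIs (-2.33), and ARNT 40 and 136 (-0.18). The oxygen sensors EGLN1 (-0.38) and EGLN2 (-0.95) and VHL (-0.56) lay within 2-fold, and the asparagine hydroxylase HIF1AN (-1.28) and the coactivator CREBBP (-1.53) were higher in CAL51. HIF proteins are controlled by their stability, which transcript counts do not measure.

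Further hypoxia targets outside the 38 were divided between the lines. Of 15 with enough counts, 4 were at least 2-fold higher in MDAMB468, 5 in CAL51 and 6 within 2-fold, with a median of 0.01. For this and the next lists, the shares over all genes were 15.8% in MDAMB468 and 18.6% in CAL51. AK4, a mitochondrial adenylate kinase, was the highest at 198 and 27 UMIs (log2 difference 3.80), and ERO1A, an oxidase of the endoplasmic reticulum, the lowest at 61 and 684 UMIs (-1.84). In the pentose phosphate pathway, which branches from glucose 6-phosphate, none of 10 genes was at least 2-fold higher in CAL51, and TKT, the transketolase, had the lowest log2 difference, at 532 and 997 CPM (-0.90). Of 9 genes of pyruvate entry into mitochondria, 2 were at least 2-fold higher in CAL51, with PDHA1 at 0.72 and PDHB at -1.71 on the log2 scale. A list of other glycolytic isozymes and related enzymes was mostly absent or low: 9 of 24 had at least 20 UMIs. Of these, 2 were at least 2-fold higher in CAL51, HKDC1 (-1.84) and TIGAR (-1.71, chosen after its value was seen), while PFKFB2 was the highest (0.98).

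S phase and stress transcripts also differed between the libraries. Of 12 S phase genes, 5 were at least 2-fold higher in CAL51, against 18.6% of all genes. Their median was -0.85, and they summed to 1485 CPM in MDAMB468 and 2490 CPM in CAL51. Of 12 genes of G2 and M phase, 1 was, below that share, and 11 lay within 2-fold. Of 7 stress and dissociation genes, 4 were at least 2-fold higher in MDAMB468, against 15.8% of all genes. HSPA1A gave 271 and 5 UMIs, and the stress list summed to 817 and 470 CPM. The part of these lists in the differences of the 38 genes was not tested.

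Some of the differences were shared with genes nearby on the chromosome. Coordinates are those of GENCODE release 29 on GRCh38. GPI (chr19:34359480-34402413) had 21 neighbours with enough counts within 1 Mb, whose median log2 difference was 1.16, and 12 of them were at least 2-fold higher in MDAMB468. PFKP (chr10:3066333-3137712) had 3 such neighbours, with a median of 2.14. The neighbours of CA12 (chr15:63321378-63382161) had a median of -0.94 over 21 genes, far from the -5.35 of CA12 itself. Around HK1 (0.21 over 27 genes), SLC16A1 (-0.33 over 20), CA9 (-0.29 over 32), EGLN3 (-0.33 over 17), ADM (-0.34 over 16) and P4HA1 (0.10 over 37) the neighbours lay within 2-fold in the median. GAPDH, TPI1, ENO2, SLC2A3 and LDHB all lie between chr12:6533927 and 21757857 and were all higher in CAL51. The 118 other genes with enough counts in that stretch had a median of -0.28, with 21 at least 2-fold higher in MDAMB468 and 31 in CAL51. Over all genes these shares were 15.8% and 18.6%. Within 1 Mb the medians were -0.52 around GAPDH (45 genes) and -0.51 around TPI1 and around ENO2 (46 each), in windows that overlap. They were -0.23 around SLC2A3 (28) and -0.48 around LDHB (8).

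Variation among cells of a line was described after every barcode had been thinned to 2500 UMIs. The 21 glycolytic enzymes then gave a median of 13 UMIs per barcode in MDAMB468 (range 4 to 26) and 22 in CAL51 (range 6 to 51). Variance over mean, which is 1 for pure counting noise, was 1.48 and 2.04. The 13 hypoxia targets gave a mean of 0.588 UMIs (range 0 to 3) and 1.27 UMIs (range 0 to 9), with variance over mean of 1.04 and 1.25. The hypoxia sum in MDAMB468 was therefore hardly more spread than counting alone.

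In CAL51 the abundant glycolytic enzymes varied together between barcodes. For each gene with a mean of at least 0.05 UMIs, the Pearson correlation with the sum of the other members was taken over 1346 barcodes, which share a library and a fixed total. It was at least 0.1 for 8 of 25 members, and for 1.25% of all 6402 genes. Among all genes, LDHA (0.28), GAPDH (0.26) and TPI1 (0.23) ranked 1, 2 and 3, and ENO1 (0.21) ranked 5. PGAM1 (0.15), BNIP3 (0.14), PKM (0.13) and PGK1 (0.12) ranked 19, 23, 37 and 42. LDHB (0.10) and GPI (0.08) ranked 84 and 178. Abundant genes correlate more readily, so genes with a mean of at least 0.5 UMIs were also set apart: there 7 of 8 members and 7.58% of 923 genes reached 0.1. The pairs with GAPDH were higher in deeper, and fewer, barcodes. GAPDH with LDHA went from 0.17 at 2500 UMIs to 0.22 at 5000 (1071 barcodes) and 0.31 at 10000 (558 barcodes), and GAPDH with TPI1 from 0.18 to 0.24 and 0.32. LDHA with LDHB stayed lower, at 0.10, 0.13 and 0.15.

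Co-variation was less clear in MDAMB468. Over 306 barcodes, 6 of 19 members reached 0.1, against 8.27% of 6001 genes, and among genes with a mean of at least 0.5 UMIs 5 of 8 did, against 12.8% of 826. GAPDH (0.19) ranked 23, followed by PGK1 (0.15), LDHA (0.14), PKM (0.12), TPI1 (0.12) and PGAM1 (0.11), and LDHB stood at -0.08. The pair of GAPDH and LDHA gave 0.04 at 2500 UMIs, 0.19 at 5000 and 0.10 at 10000, and GAPDH and TPI1 gave 0.09, 0.05 and 0.03, so these pairs held no steady value. GAPDH and ENO1 gave 0.07, 0.10 and 0.14. These are weak correlations in sparse counts over fewer barcodes, and no pair in MDAMB468 is given as a finding.

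**Figure D3:**
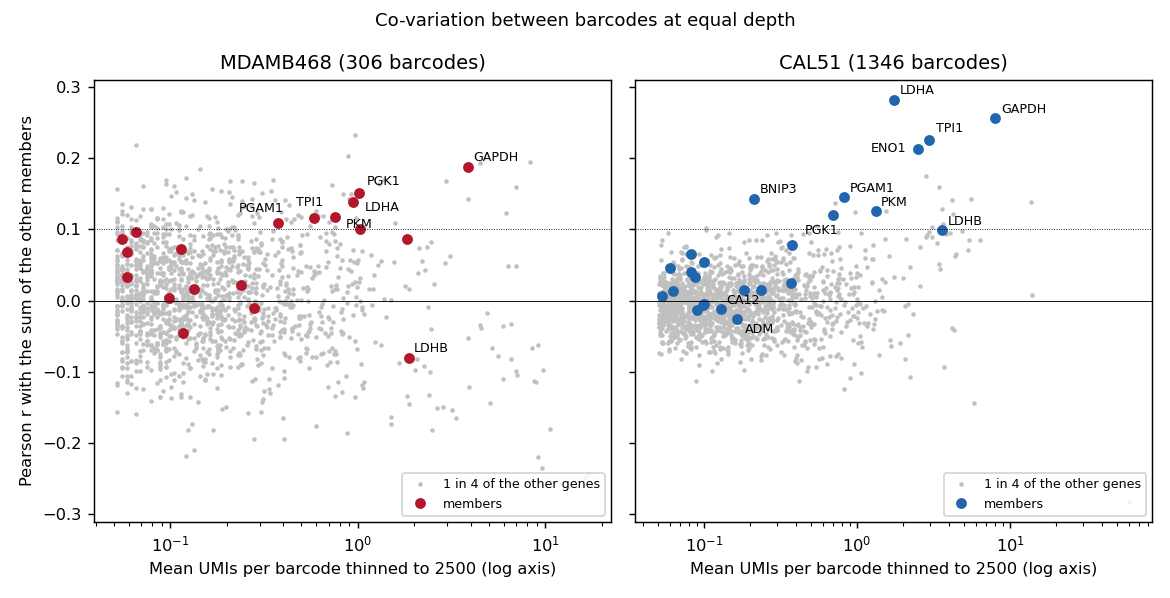
Pearson r of each gene with the sum of the other members (vertical axis) against its mean UMIs per barcode thinned to 2500 UMIs (log axis), in MDAMB468 (left) and CAL51 (right); coloured points are the members and grey points 1 in 4 of the other genes. In CAL51, LDHA, GAPDH and TPI1 lie above all other genes, drawn or not. ENO1 (0.21) ranks below the non-member PRDX1 (0.22), and CA12 and ADM lie near 0.

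No stable relation between the hypoxia targets and the enzymes was detectable at this depth. The sum of the 13 targets and the sum of the enzymes correlated at 0.03 in CAL51 and at 0.15 in MDAMB468, and the latter was 0.041, 0.035 and 0.041 at 1000, 5000 and 10000 UMIs. Given the S phase, G2 and M phase and mitochondrial sums and the depth, the partial correlations were 0.03 and 0.14. In CAL51, CA12 (-0.01), ADM (-0.03), P4HA1 (0.02), P4HA2 (-0.01), KDM3A (-0.01) and VEGFA (0.01) all lay near 0 against the other members, at means between 0.0528 and 0.235 UMIs, where sparse counts hide weak relations. BNIP3 was the exception, at 0.14 with the other members from a mean of 0.212 UMIs, 0.12 with the enzymes and 0.12 with the other hypoxia targets. The enzyme sum correlated with the sum of the epithelial markers at 0.28 in MDAMB468 and 0.16 in CAL51. With mitochondrial UMIs it correlated at -0.19 in MDAMB468 and -0.29 in CAL51. Of the sums compared here, the epithelial one was thus the strongest correlate in MDAMB468 and mitochondrial UMIs in CAL51. For the S phase sum the values were 0.14 and 0.10, and for the G2 and M phase sum -0.07 and -0.13. For the stress sum they were -0.04 and -0.05, and for the log of the depth before thinning 0.03 and 0.14. The part of these correlates in the co-variation among the enzymes was not tested.

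Ranges of GAPDH show the sizes behind these correlations. CAL51 barcodes were divided by their thinned GAPDH count into 355 with 1 to 5 UMIs, 560 with 6 to 9 and 431 with 10 to 23. These are ranges of a continuous count and not cell types: 154 barcodes had 5 UMIs and 123 had 6, and 118 had 9 and 131 had 10. LDHA stood at 590 CPM (541 to 643) in the low, 659 CPM (617 to 703) in the middle and 832 CPM (779 to 889) in the high range, with medians of 1, 1 and 2 UMIs per barcode. TPI1 went from 1020 CPM (954 to 1088) to 1344 CPM (1276 to 1415), ENO1 from 909 to 1098 CPM, PGK1 from 246 to 321 CPM and LDHB from 1336 to 1504 CPM, with intervals of the low and high range that do not overlap. With GAPDH itself set aside, these 5 of 24 members were higher in the high range without overlap, as were 2.08% of 6401 genes. Among genes with a mean of at least 0.5 UMIs they were 5 of 7 members, against 10.4% of 922 genes. In the other direction, lower in the high range, there were 0 of 24 members against 1.91% of genes, and 0 of 7 against 4.66% at the higher mean. For PKM (500 to 593 CPM), PGAM1 (311 to 342), GPI (140 to 163) and BNIP3 (75.5 to 94.7) the intervals overlap. P4HA1 (89.0 to 94.7 CPM), CA12 (50.7 to 53.8) and ADM (75.5 to 61.3) overlap widely. Across the same ranges mitochondrial UMIs went from 49083 to 42289 CPM, the G2 and M phase sum from 4655 to 4020 CPM and the S phase sum from 2458 to 2444 CPM. In MDAMB468, with 98, 106 and 102 barcodes at 0 to 2, 3 to 4 and 5 to 13 GAPDH UMIs, LDHA went from 290 CPM (226 to 366) to 416 CPM (340 to 503) and LDHB from 763 to 725 CPM, and the intervals overlap. In that line 0 of 18 members were higher in the high range without overlap, against 0.8% of 6000 genes, and 0 were lower, against 0.783%. At a mean of at least 0.5 UMIs, 0 of 7 members were higher, against 2.67% of 825 genes, and 0 were lower, against 4% of them.

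**Figure D4:**
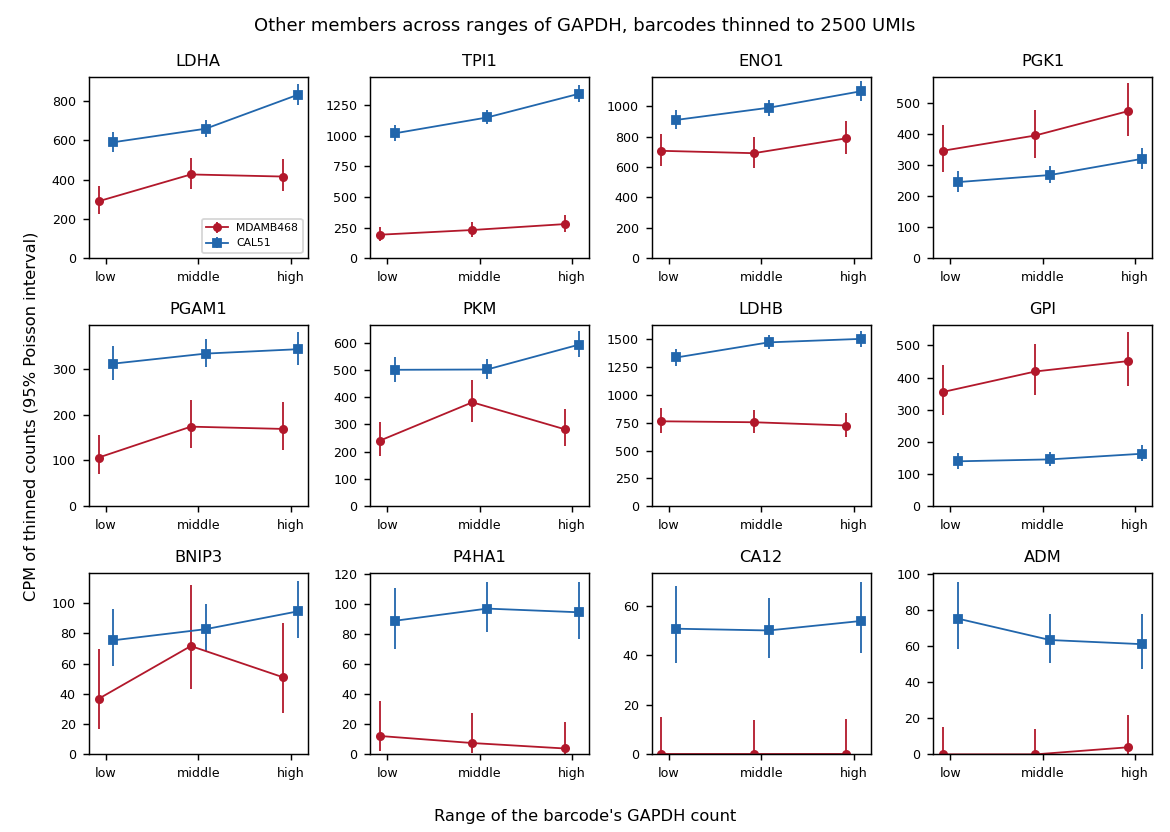
Level of 12 members (CPM of thinned counts, with exact 95% Poisson intervals) in barcodes with low, middle and high GAPDH counts, for MDAMB468 (red circles) and CAL51 (blue squares). In CAL51, LDHA goes from 590 to 832 CPM and TPI1 from 1020 to 1344 CPM, while CA12 goes from 50.7 to 53.8 CPM.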

How the data were processed

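Per the labels' protocols, single cells of 2 lines were captured with an in-house Drop-seq device. The deposited values are raw UMI counts, as whole numbers. STARsolo is the tool named in the submitters' processing notes, without a version. Not given in the sources used here were the genome build, annotation, choice of barcodes and use of strand. The prefix of each barcode assigned it to its line. Symbols came from a gene-name table.

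Counts were summed per line, scaled by the total of all genes to CPM and compared as log2(CPM + 1). The 2-fold call was a log2 difference of at least 1 among genes with at least 20 UMIs in both lines together. Intervals are exact at 95% (Poisson for levels, conditional binomial for ratios, Clopper-Pearson for shares) and cover counting error only. A zero was set to a floor of 3 counts, 0.545 CPM in MDAMB468 and 0.185 CPM in CAL51. Barcodes holding more than 1 cell were not removed and no doublet caller was run. Cells are not replicates, and no p-value was computed. For co-variation each barcode was thinned at random to 2500 UMIs. The scripts were checked on simulated counts. Named genes were the members past 2-fold, the isozyme families, the highest member of each role, the extremes of each related list and the 5 genes most like the members. A gene that this rule names is not reported here. Members and lists were chosen with earlier results of these data known. The ranges of GAPDH, the depth of 10000 UMIs and the comparison at a mean of 0.5 UMIs were added after seeing the data. Alternatives covered shared and satellite barcodes, scaling (TMM factors from edgeR 4.0.16, median of ratios, totals without mitochondrial and ribosomal protein genes), pseudocount, minimum count, equal weight per barcode and added pseudogenes. Python 3.11.15, numpy 2.4.6, scipy 1.17.1 and R 4.3.3 were used.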

Additional observations from a re-analysis of the deposited data

How the results depend on the processing

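No paired analysis was possible because each line had 1 library. Over the 11 alternatives for line differences, 4 to 7 members were at least 2-fold higher in MDAMB468 and 11 to 16 in CAL51, 3 families differed in their leading gene in each, and of the members with at least 20 UMIs HK2 alone changed its sign. Of the 20 members past 2-fold, 13 stayed past it under every setting, and SLC16A3, LDHA, LDHB, BNIP3L, CA9, ANKRD37 and KDM3A did not. The median log2 difference of the members was -0.72 with a pseudocount of 0.1 CPM, -0.49 with 10 CPM, -0.86 with a minimum of 100 UMIs and -0.75 with each barcode weighted equally. The share of all genes at least 2-fold higher in MDAMB468 and CAL51 was 6.82% and 7.47% with a pseudocount of 10 CPM, and 9.8% and 9.45% with no minimum. The correlation of enzyme and hypoxia sums in MDAMB468 was 0.041 at 1000, 0.035 at 5000 and 0.041 at 10000 UMIs. Members with a correlation of at least 0.1 in MDAMB468 numbered 2 of 13 at 1000 UMIs, 4 of 26 at 5000 and 10 of 27 at 10000, against 5.31%, 11.1% and 13.5% of all genes tested there. In CAL51 they numbered 3 of 15, 10 of 29 and 12 of 31, against 0.331%, 2.38% and 4.43%. The cause was not tested. Depth limits SLC2A3, ALDOC, NDRG1, PFKFB4 and CA9, which had under 40 UMIs in all, and co-variation in MDAMB468.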

Other observations

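The genes most like the members, by Pearson correlation over barcodes thinned to 2500 UMIs, were not other hypoxia genes in CAL51. Against the sum of all members, the 5 highest non-members among genes with a mean of at least 0.05 UMIs were PRDX1 (0.22), a peroxiredoxin, C1QBP (0.18), RPL8 (0.18), KRT8 (0.18) and RAN (0.17) over 1346 barcodes. In MDAMB468 they were ACTG1 (0.26), EEF1A1 (0.26), RAD1 (0.26), RPL8 (0.25) and CFL1 (0.25) over 306 barcodes, and RPL8 was on both lists. At the other end, the 5 lowest in MDAMB468 were RPL23 (-0.25), PTMA (-0.25), MALAT1 (-0.24), PABPC1 (-0.24) and RPS16 (-0.23). Ribosomal protein genes thus stood at both ends in that line. In CAL51 the mitochondrial ribosomal RNA MT-RNR2 stood at -0.28 and MALAT1, a nuclear long non-coding RNA, at -0.25. The genes named at this end were chosen after their values were seen. All barcodes of a line share a library and a fixed total after thinning.

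Against the sum of the 13 hypoxia targets, the 5 highest in CAL51 were TUBA1A (0.15), ENC1 (0.15), ANKZF1 (0.13), COL2A1 (0.13) and GPC3 (0.12). In MDAMB468 they were POLR1G (0.24), VIM (0.22), TTF1 (0.21), DDIT4 (0.20) and NME3 (0.19). DDIT4 is itself a hypoxia target, and stood at 96.1 CPM in MDAMB468 and 104 CPM in CAL51. These correlations are weak and rest on sparse sums, so they are given as values only.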
